A study of Mus musculus with 8 samples.

Results

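Collagen and laminin chains are the subunits of the main structural networks of the extracellular matrix, and their mRNA was examined here in mouse occipital cortex after a fast. Members were all rows whose symbol starts with Col followed by a chain number or with Lama, Lamb or Lamc. The rule found 56 of the 24344 distinct symbols in the table: 55 chains, and Col4a3bp, which has a collagen name but encodes a ceramide transfer protein. The study sequenced RNA of cortex homogenate from C57BL/6J mice at postnatal day 35. A group of 4 libraries came from animals fasted for 48 h and the other 4 from animals that ate ad libitum. No transgene, drug or other manipulation is given for either group. The labels do not say whether the 8 libraries are separate animals or litters, so a p-value measures only the spread between these samples.

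Fibrillar collagens (types I, II, III, V, XI, XXIV and XXVII) assemble into tensile fibrils. In the brain, type I and III collagen is made mainly by fibroblasts of the meninges and around larger vessels, while the parenchyma holds little of it. Basement membranes are thin sheets of type IV collagen and laminin trimers, each laminin made of an alpha, a beta and a gamma chain. They surround every cerebral vessel and underlie the surface of the brain, and endothelial cells, mural cells and astrocytes all contribute chains to them.

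Depth, estimated from the smallest values in the table, was 16900000 to 22100000 fragments per library, and 12217 to 12440 genes reached 1 FPKM (a fragment count scaled by transcript length and by the depth of the library) in each. The ad libitum replicate 2 library had the highest total, 360010.3 FPKM, with 24.08% of it in its 10 most abundant genes. The other libraries had totals of 253470.2 to 304931.1 FPKM, with 3.98% to 13.78% in their 10 most abundant genes. Without ad libitum replicate 2, 3 chains were called lower and 0 higher, against 11.3% and 7.95% of all genes. The ad libitum replicate 3 library held intermediate levels both of the X-inactivation transcript Xist, at 32.2 FPKM, and of the Y-linked gene Ddx3y, at 5.67 FPKM, where every other library held only 1 of these at 10.5 FPKM or more. Without that library 4 chains were called lower and 0 higher, against 11.1% and 6.78% of all genes. Xist was at 62.9 to 77.5 FPKM in replicates 2 and 4 of both groups. Ddx3y was at 10.5 to 14.4 FPKM in fasted replicates 1 and 3 and ad libitum replicate 1. Each group thus held libraries of both sexes, and the replicate numbers partly follow sex. The main fit has no term for sex.

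Of the 55 chains, 25 passed the filter of at least 1 FPKM in at least 4 libraries, and the other 30 had means over all libraries of 0.0316 to 0.961 FPKM. At an adjusted p under 0.05 (limma, adjusted over all 12377 genes tested) 4 chains fell in fasted cortex: Col1a1, Col11a2, Col12a1 and Col26a1. No chain rose, and 21 were not called. The share of chains that fell was 16.0%, against 16.3% of all genes tested, and 9.56% of all genes rose. The share of chains that fell was thus close to that of genes in general. Groups did not overlap in 4 chains that were lower in fasted cortex and in 0 that were higher, against 16.5% and 11.1% of all genes tested. Log2 changes are of FPKM + 1 unless stated, a scale that understates changes of low genes. Their median was -0.12 over the chains, against -0.02 over all genes.

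The fibrillar and basement membrane classes were set side by side. Beside both counts stand the shares of all genes tested, 16.3% lower and 9.56% higher. Among the 11 fibrillar chains, 6 were tested, 2 fell, and all 6 estimates were below 0, with a median log2 change of -0.31. Among the 17 basement membrane chains, 8 were tested and 0 were called, with estimates from -0.20 to 0.07 and a median of -0.04. This class holds type IV chains and laminins only. Col15a1 and Col18a1, collagens of basement membrane zones, were classed apart as multiplexins and lay under the filter. With no filter Col15a1 fell and Col18a1 was not called. With so few chains per class, the difference between the classes was not tested.

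**Figure D1:**
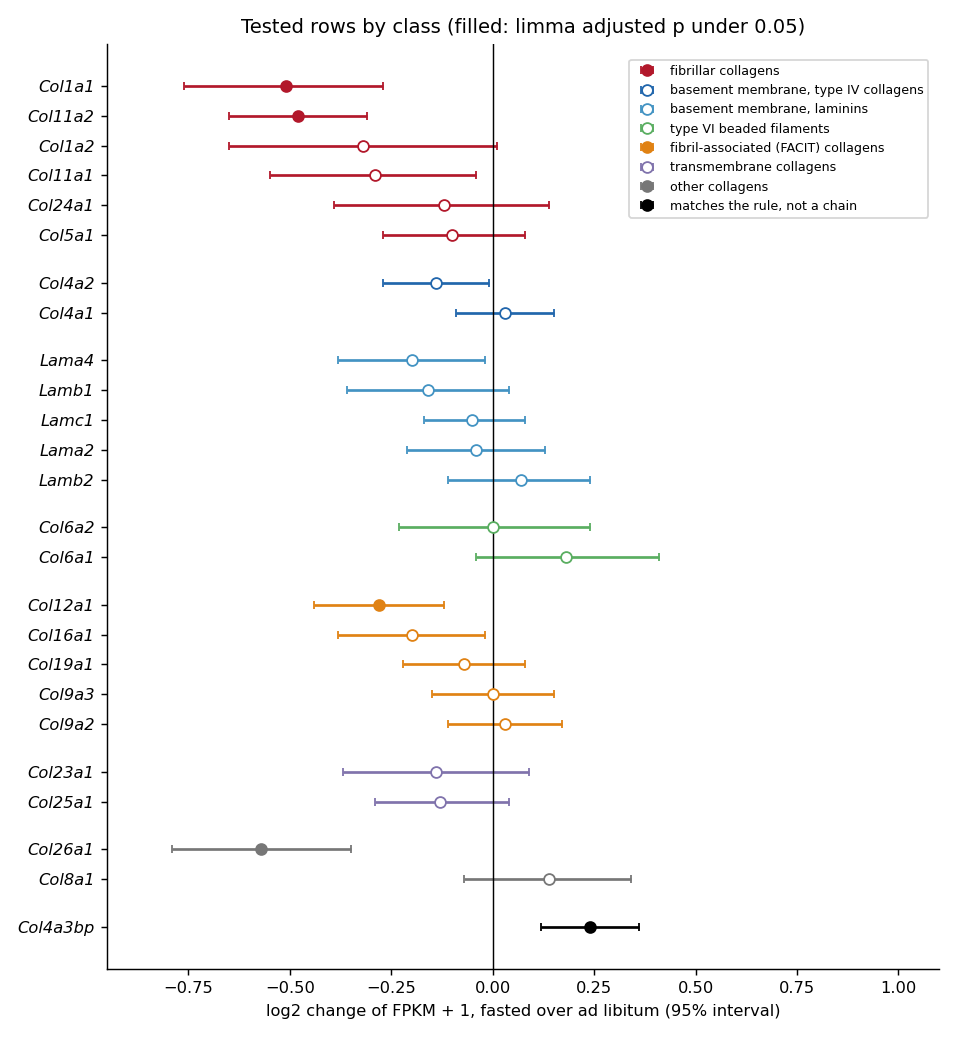
Log2 change of FPKM + 1, fasted over ad libitum, on the horizontal axis for 24 of the 25 tested chains and Col4a3bp, grouped and coloured by class; bars are 95% intervals of limma and filled points have an adjusted p under 0.05. The 4 chains that fell are Col1a1, Col11a2, Col12a1 and Col26a1, and the basement membrane estimates lie between -0.20 and 0.07.

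Type I collagen, the main fibril of the meninges, is built of Col1a1 and Col1a2 chains. Col1a1 (ENSMUSG00000001506.10, chr11:94936224-94953042, GRCm38) had 1.77, 1.96, 1.41 and 1.13 FPKM in the fasted libraries, against 2.23, 3.27, 2.58 and 2.54 FPKM in the ad libitum libraries. Each fasted library lay below each ad libitum library. The means were 1.57 ± 0.371 FPKM in fasted and 2.66 ± 0.437 FPKM in ad libitum cortex (SD, n = 4 each), a log2 change of -0.51 with a standard error of 0.113 (limma adjusted p = 0.00752). These levels rest on an estimated 133.9 to 358.6 fragments per library. In a homogenate, fewer cells that express a gene and less RNA per cell cannot be told apart.

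The partner chain Col1a2 (chr6:4504814-4541544) had 2.78, 3.21, 2.55 and 1.69 FPKM in fasted and 2.82, 4.56, 2.76 and 3.62 FPKM in ad libitum libraries. The ranges overlapped, with fasted replicate 4 lowest and ad libitum replicate 2 highest. Its log2 change of -0.32 (95% interval -0.65 to 0.01) was not called (limma adjusted p = 0.136).

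Type III collagen, a homotrimer of Col3a1 that forms mixed fibrils with type I, was not tested because 0 fasted and only 3 ad libitum libraries reached 1 FPKM. Col3a1 and the other untested chains named with values were chosen after their values were seen. Col3a1 had 0.670, 0.931, 0.662 and 0.489 FPKM in fasted and 1.05, 1.47, 0.973 and 1.45 FPKM in ad libitum libraries, without overlap. With no filter on low genes its log2 change was -0.40 (limma adjusted p = 0.0263 over 19289 genes). With 0.1 added to the FPKM in place of 1, a setting chosen after seeing the data, it was -0.77. The sum of Col1a1, Col1a2 and Col3a1 was 4.81 ± 1.17 FPKM in fasted and 7.33 ± 1.47 FPKM in ad libitum cortex (SD, n = 4 each). The highest fasted sum, 6.102 FPKM in replicate 2, lay just below the lowest ad libitum sum, 6.104 FPKM in replicate 1. Median-ratio scaling, with factors of 0.9898 and 1.0231 for these libraries, reverses that order, so the separation depends on the scaling.

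Type XI collagen, best known from cartilage, where it nucleates thin fibrils, is built of Col11a1 and Col11a2 with a further chain. Col11a2 (chr17:34039437-34066685) had 1.70, 2.07, 1.67 and 1.47 FPKM in fasted and 2.68, 2.71, 3.14 and 2.67 FPKM in ad libitum libraries. The lowest ad libitum library was above the highest fasted one. The means were 1.73 ± 0.252 FPKM in fasted and 2.80 ± 0.228 FPKM in ad libitum cortex (SD, n = 4 each), a log2 change of -0.48 with a standard error of 0.0789 (limma adjusted p = 0.00167). Col11a1 had 0.774, 0.978, 0.882 and 1.36 FPKM in fasted and 1.02, 1.46, 1.88 and 1.46 FPKM in ad libitum libraries. It passed the filter with 1 fasted and 4 ad libitum libraries at 1 FPKM or more. Its log2 change of -0.29 was not called (limma adjusted p = 0.0839), while a fit with the replicate number as a block called it (limma adjusted p = 0.0327), as did fits without fasted replicate 4 or without ad libitum replicate 1 (limma adjusted p = 0.0283 in the last of these).

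Promoter sequences from RefSeq (GRCm38.p6) matched 40 of the 55 chains. Of the 4 fibrillar chains lower in fasted cortex without overlap, Col3a1 and Col11a2 are shown, and Col1a1 and Col27a1 are not. Each sequence is the 250 bases before the start that RefSeq annotates. Positions are counted back from that start, which for Col11a2 lies upstream of the GENCODE start of the gene given above and for Col3a1 is the same in both annotations. Capitals mark the TATA box sequence TATAAA where it occurs on either strand. They also mark the GC box core GGGCGG, which reads as CCGCCC where it lies on the minus strand. Col3a1 lies at chr1:45311288-45311537 and Col11a2 at chr17:34038888-34039137, both on the plus strand.
Col3a1: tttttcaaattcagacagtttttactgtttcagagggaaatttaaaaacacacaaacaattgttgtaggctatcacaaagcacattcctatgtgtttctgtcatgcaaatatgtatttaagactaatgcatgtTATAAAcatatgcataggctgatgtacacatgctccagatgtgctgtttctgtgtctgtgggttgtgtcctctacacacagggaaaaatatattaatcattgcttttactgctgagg
Col11a2: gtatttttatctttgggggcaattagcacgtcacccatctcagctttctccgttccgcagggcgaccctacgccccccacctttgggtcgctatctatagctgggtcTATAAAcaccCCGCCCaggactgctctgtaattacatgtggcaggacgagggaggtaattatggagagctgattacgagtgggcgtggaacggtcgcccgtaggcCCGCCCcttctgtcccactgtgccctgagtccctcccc
Both windows hold TATAAA on the plus strand, from base -117 to -112 in Col3a1 and from -143 to -138 in Col11a2. Col11a2 also holds CCGCCC at -133 to -128 and at -38 to -33, and no match to GGGCGG was found in either direction in the Col3a1 window. TATAAA was present in 5 of the 40 matched chain windows (12.5%), against 12.4% of all 32851 promoter windows. GGGCGG was present in 23 of the 40 (57.5%), against 32.7% of all windows. All windows outnumber the 24344 distinct symbols measured here, so the compared sets are unlike, and the difference was not tested. A match describes the letters of a window and is not a site of binding.

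Type V collagen regulates the diameter of type I fibrils, and its chain Col5a1 was the most abundant fibrillar chain. Col5a1 had 5.10, 6.27, 5.84 and 5.77 FPKM in fasted and 5.64, 5.70, 7.20 and 6.37 FPKM in ad libitum libraries. The groups overlapped, and the log2 change was -0.10 (95% interval -0.27 to 0.08, limma adjusted p = 0.396). Col24a1, a minor fibrillar chain, had a log2 change of -0.12 (limma adjusted p = 0.48).

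The remaining 5 fibrillar chains lay under the filter. Col27a1, a fibrillar chain known from cartilage, had 0.328 to 0.453 FPKM in fasted and 0.728 to 0.825 FPKM in ad libitum libraries. With no filter it fell (log2 change -0.36, limma adjusted p = 0.00239). Col5a3, a further type V chain, moved the other way, with 0.423 to 0.582 FPKM in fasted and 0.257 to 0.355 FPKM in ad libitum libraries. Its log2 change with no filter was 0.21 (limma adjusted p = 0.01996). With 0.1 added to the FPKM in place of 1, the log2 changes of Col27a1 and Col5a3 were -0.86 and 0.58. Col5a2 and Col2a1, the chain of cartilage type II collagen, were not called without the filter (log2 changes -0.14 and 0.08, limma adjusted p = 0.192 and 0.0860). Fibrillar chains did not all change in 1 direction, since Col5a3 rose in that fit.

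**Figure D2:**
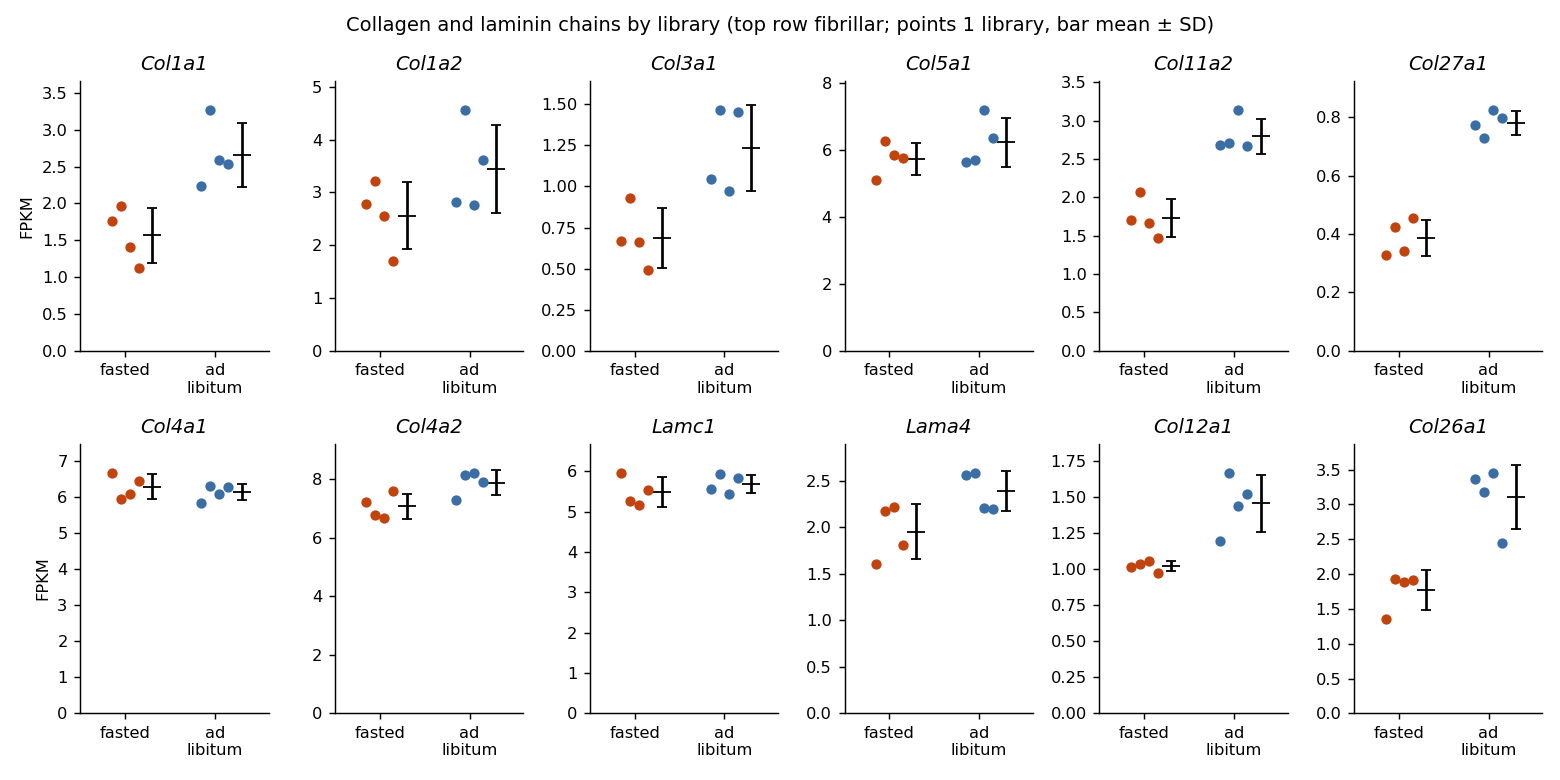
FPKM in each library (points; fasted left, ad libitum right), with the mean and SD of 4 libraries beside them, for 12 of the chains described in the text, fibrillar ones on top. Col1a1, Col11a2, Col12a1 and Col26a1, and Col3a1 and Col27a1 under the filter, show fasted libraries below all ad libitum libraries, while the groups overlap in Col4a1.

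Of the basement membrane chains, Col4a1 and Col4a2 form the type IV heterotrimer found in all basement membranes. Col4a1 (chr8:11198423-11312826) had 6.67, 5.93, 6.07 and 6.44 FPKM in fasted and 5.82, 6.30, 6.07 and 6.28 FPKM in ad libitum libraries. The groups overlapped. The log2 change was 0.03 (95% interval -0.09 to 0.15, limma adjusted p = 0.708). Col4a2 (chr8:11312805-11449287) had 7.21, 6.78, 6.67 and 7.60 FPKM in fasted and 7.28, 8.12, 8.22 and 7.90 FPKM in ad libitum libraries. The groups overlapped through fasted replicate 4 and ad libitum replicate 1. Its log2 change of -0.14 (95% interval -0.27 to -0.01) was not called (limma adjusted p = 0.109), but it was called with offsets that correct each library for the GC content and length of transcripts (log2 change -0.18, limma adjusted p = 0.0307). In that fit it was the 1 basement membrane chain called lower, while 16.4% of all genes were lower and 16.1% higher.

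The genes of these chains lie head to head and are read in opposite directions, Col4a1 on the minus strand and Col4a2 on the plus strand. In the annotation their first exons overlap by 22 bases, chr8:11312805-11312826, shown on the plus strand as the stretch where reads of both could not be separated without strand.
Col4a1 and Col4a2 overlap: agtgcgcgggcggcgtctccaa
The 4 minor type IV chains, Col4a3, Col4a4, Col4a5 and Col4a6, which serve other basement membranes such as that of the kidney glomerulus, lay under the filter. Col4a5, the most abundant of them, had 0.363 to 0.473 FPKM in fasted and 0.497 to 0.743 FPKM in ad libitum libraries, without overlap. With no filter it was not called (log2 change -0.19, limma adjusted p = 0.0587).

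Laminins were represented by 11 chains, of which 6 were tested and none was called, against 16.3% of all genes lower and 9.56% higher. Lamc1, the gamma chain of most laminins, had 5.96, 5.27, 5.15 and 5.55 FPKM in fasted and 5.55, 5.92, 5.44 and 5.83 FPKM in ad libitum libraries, with a log2 change of -0.05 (limma adjusted p = 0.604). The groups overlapped. Lama4, the alpha chain of endothelial basement membranes, had 1.604, 2.178, 2.215 and 1.809 FPKM in fasted and 2.557, 2.585, 2.210 and 2.195 FPKM in ad libitum libraries. Its interval, from -0.38 to -0.02 around a log2 change of -0.20, lay below 0, but it was not called (limma adjusted p = 0.0977). Lama2, the alpha chain made by astrocytes and mural cells, and the beta chains Lamb1 and Lamb2 had log2 changes of -0.04, -0.16 and 0.07 (limma adjusted p = 0.751, 0.216 and 0.566). Lama5, the other endothelial alpha chain, lay under the filter at 0.754 to 1.04 FPKM in fasted and 0.692 to 0.761 FPKM in ad libitum libraries.

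Summed levels over each class set the classes side by side. The 11 fibrillar chains summed to 15.7, 18.8, 16.6 and 15.3 FPKM in fasted and 18.6, 23.0, 23.0 and 22.2 FPKM in ad libitum libraries, a ratio of means of 0.766. The only overlap was between fasted replicate 2 and ad libitum replicate 1. The 17 basement membrane chains summed to 36.4, 34.9, 34.2 and 34.8 FPKM in fasted and 34.9, 38.9, 35.7 and 36.7 FPKM in ad libitum libraries, a ratio of 0.960. The fibrillar sum divided by the basement membrane sum within a library was 0.430, 0.539, 0.486 and 0.439 in fasted and 0.532, 0.590, 0.644 and 0.604 in ad libitum libraries. Again fasted replicate 2 and ad libitum replicate 1 overlapped. These sums describe the chains chosen and were not tested.

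Markers of the cells that make these chains were read beside them. Of 17 tested markers of meningeal and perivascular fibroblasts, 6 fell, 0 rose and 11 were not called. Of all genes tested, 16.3% fell and 9.56% rose. The median log2 change of the list was -0.22, and the uncalled markers had estimates from -0.34 to 0.08. The sum of the markers was 96.8 to 152.1 FPKM in fasted and 130.1 to 167.6 FPKM in ad libitum libraries. The calls were the transporters Slc22a8, Slc22a6 and Slc47a1, the proteoglycan Bgn, the retinoid-binding Crabp2 and the thrombin-binding Thbd, with log2 changes of -0.64, -0.41, -0.53, -0.58, -0.60 and -0.44. Slc47a1 passed the filter through the ad libitum libraries, at 1.07 to 2.893 FPKM, against 0.628 to 1.415 FPKM in fasted ones. So did Slc22a6, at 1.207 to 2.151 FPKM, against 0.6766 to 1.349 FPKM in fasted ones. The sum is dominated by Nov, at means of 46.7 and 45.7 FPKM in fasted and ad libitum cortex, which neurons also express, and by Igf2, at 23.3 and 28.3 FPKM. Fasted replicate 4, the library with the lowest Col1a1, Col1a2 and Col3a1, also had the lowest fibroblast marker sum. Col11a2 was lowest there too, at 1.47 FPKM, but Col11a1 was highest there among fasted libraries, at 1.36 FPKM. Col5a1 and Col24a1 were lowest in fasted replicate 1. Without fasted replicate 4, 5 chains fell and 0 rose, against 13.1% and 8.44% of all genes.

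The same shares of all genes, 16.3% lower and 9.56% higher, stand beside the counts of the vascular and other markers. Of 14 endothelial markers 5 fell (Itm2a, Tek, Emcn, Tie1 and Kdr), 0 rose and 9 were not called (median of the list -0.19), with sums of 77.7 to 92.8 FPKM in fasted and 92.7 to 109.9 FPKM in ad libitum libraries. Tie1 passed the filter through the ad libitum libraries, at 1.407 to 1.86 FPKM, against 0.8154 to 1.172 FPKM in fasted ones. With the replicate block 6 endothelial markers fell and 2 rose, against 22.1% and 14.3% of all genes. The markers that rose, Abcb1a and Esam, named after their values were seen, had log2 changes of 0.24 and 0.23 (limma adjusted p = 0.0319 and 0.0197 with the block). Of 10 tested pericyte and smooth muscle markers 3 fell (Rgs5, Anpep and Vtn), 0 rose and 7 were not called (median -0.14). Anpep passed the filter through the ad libitum libraries, at 1.135 to 1.926 FPKM, against 0.567 to 1.081 FPKM in fasted ones. The list summed to 41.2 to 46.6 FPKM in fasted and 53.8 to 64.3 FPKM in ad libitum libraries, without overlap. Choroid plexus and ependymal markers summed to 2.88 to 5.12 FPKM in fasted and 1.94 to 3.54 FPKM in ad libitum libraries, and the only one tested, Foxj1, was not called. Of 8 astrocyte markers 3 fell (Aqp4, Gja1 and Gfap) and 1 rose (Gjb6), and of 8 neuron markers 1 fell (Tubb3) and 0 rose. The block added 1 rising marker to each of these last lists, Aldoc and Gad1 (limma adjusted p = 0.0162 and 0.0386 with the block), also named after their values were seen. No marker of any list was at 0 in every library. The part of these cell types in the fall of Col1a1 and the other called chains was not tested.

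**Figure D3:**
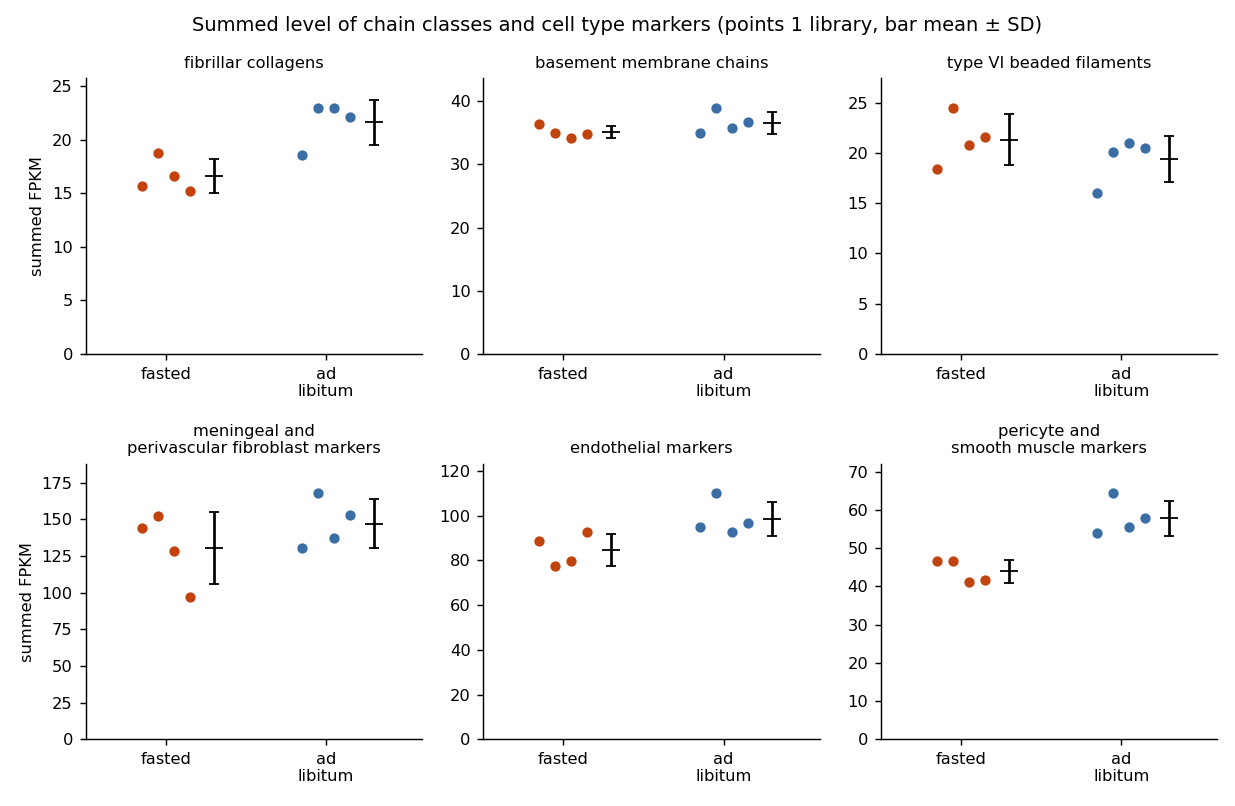
Summed FPKM per library (points; fasted left, ad libitum right) with mean and SD of 4 libraries, for fibrillar, basement membrane and type VI chains (top) and for markers of fibroblasts, endothelium and mural cells (bottom). The fibrillar and basement membrane sums overlap between the groups, and the mural marker sums do not.

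Fibril-associated collagens decorate the surface of fibrils, and 5 of 9 were tested. Col12a1, which binds type I fibrils, had 1.01, 1.04, 1.06 and 0.976 FPKM in fasted and 1.19, 1.67, 1.44 and 1.52 FPKM in ad libitum libraries (chr9:79598991-79718831). All fasted libraries lay below all ad libitum ones. The means were 1.02 ± 0.0345 FPKM in fasted and 1.45 ± 0.199 FPKM in ad libitum cortex (SD, n = 4 each), a log2 change of -0.28 with a standard error of 0.0728 (limma adjusted p = 0.0172). The call ended without ad libitum replicate 2 (limma adjusted p = 0.0530).

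The most abundant of this class were Col19a1, made by subsets of cortical neurons, and Col9a3, a chain of cartilage type IX collagen. Col19a1 had 4.34, 4.23, 4.74 and 5.07 FPKM in fasted and 4.88, 4.56, 5.36 and 4.67 FPKM in ad libitum libraries. Col9a3 had 2.70, 2.68, 2.91 and 2.95 FPKM in fasted and 3.05, 2.62, 3.06 and 2.54 FPKM in ad libitum libraries. Both overlapped between the groups, with log2 changes of -0.07 and 0.00 (limma adjusted p = 0.494 and 0.991). Col16a1, another fibril-associated chain, had a log2 change of -0.20 that was not called (limma adjusted p = 0.0979) except without ad libitum replicate 1 (limma adjusted p = 0.0256) or with the replicate block and the GC and length offsets together (0.0319).

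Type VI collagen forms beaded filaments from Col6a1, Col6a2 and a further alpha chain. Col6a1, the most abundant chain of all 55, had 12.67, 17.94, 14.98 and 16.56 FPKM in fasted and 11.49, 14.02, 15.03 and 13.59 FPKM in ad libitum libraries. The groups overlapped, and the log2 change of 0.18 was called only with the replicate number as a block (limma adjusted p = 0.212 without it and 0.0360 with it). Col6a2 had 5.04, 5.87, 4.91 and 4.43 FPKM in fasted and 3.85, 5.52, 5.13 and 5.83 FPKM in ad libitum libraries, with a log2 change of 0.00 (limma adjusted p = 0.992). Col6a3, which joins them in the usual type VI trimer, lay under the filter at 0.1004 to 0.155 FPKM in fasted and 0.244 to 0.349 FPKM in ad libitum libraries. With no filter it fell (log2 change -0.20, limma adjusted p = 0.00524), which set it apart in direction from the estimate of Col6a1. With 0.1 added to the FPKM in place of 1, the log2 change of Col6a3 was -0.78.

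The other called chain was Col26a1, a short secreted collagen first described in testis and ovary. It had 1.35, 1.93, 1.89 and 1.92 FPKM in fasted and 3.36, 3.17, 3.46 and 2.44 FPKM in ad libitum libraries (chr5:136741759-136883209). No fasted library reached the lowest ad libitum one. The means were 1.77 ± 0.282 FPKM in fasted and 3.11 ± 0.458 FPKM in ad libitum cortex (SD, n = 4 each), and the log2 change of -0.57, with a standard error of 0.0999, was the largest among the tested chains (limma adjusted p = 0.00239). Col8a1, a network-forming chain of vessel walls, had 0.977, 1.18, 1.16 and 1.30 FPKM in fasted and 0.732, 1.27, 0.815 and 1.06 FPKM in ad libitum libraries (log2 change 0.14, limma adjusted p = 0.304).

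Transmembrane collagens, which are anchored in the cell membrane and include neuronal proteins, were not called. Col25a1, a neuronal collagen found in amyloid plaques, had 3.75, 3.53, 4.31 and 3.85 FPKM in fasted and 3.82, 4.72, 4.63 and 4.11 FPKM in ad libitum libraries (log2 change -0.13, limma adjusted p = 0.231). Col23a1 had 2.86, 3.26, 2.77 and 2.05 FPKM in fasted and 2.54, 3.43, 3.18 and 3.21 FPKM in ad libitum libraries (log2 change -0.14, limma adjusted p = 0.365). Both overlapped between the groups.

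Multiplexins, the collagens of basement membrane zones whose ends yield endostatin-like fragments, were both under the filter. Col15a1 had 0.332, 0.438, 0.631 and 0.469 FPKM in fasted and 1.29, 1.30, 1.23 and 0.879 FPKM in ad libitum libraries. Its groups were fully apart, at means of 0.468 ± 0.124 and 1.17 ± 0.1997 FPKM in fasted and ad libitum cortex (SD, n = 4 each). With no filter its log2 change of FPKM + 1 was -0.57 (limma adjusted p = 0.00325), an understatement at this level. With 0.1 added to the FPKM in place of 1 it was -1.18, and the ratio of means was 0.398. Col18a1 was not called in that fit (log2 change 0.08, limma adjusted p = 0.379).

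With no filter, 8 chains fell and 1 rose, against 10.1% and 6.36% of the 19289 genes then tested. Col3a1, Col15a1, Col27a1 and Col6a3 were added to the 4 that had fallen, and Col5a3 was the one that rose. Over all 55 chains, the groups did not overlap in 11 that were lower and 2 that were higher in fasted cortex, against 12.3% and 8.83% of all genes above 0 in any library. With the replicate block 5 chains fell and 1 rose, against 22.1% and 14.3% of all genes, and with the block and the GC and length offsets 7 fell and 1 rose, against 20.1% and 20.3%. The lowest chains cannot bear a comparison, since Col10a1 rests on an estimated 0.9 to 4.0 fragments per library.

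Col4a3bp, the ceramide transfer protein caught by its symbol, had 15.63, 14.00, 15.04 and 15.15 FPKM in fasted and 12.16, 11.92, 12.84 and 13.13 FPKM in ad libitum libraries (chr13:96542618-96640167). Every fasted library was above every ad libitum library. The log2 change was 0.24 with a standard error of 0.0537 (limma adjusted p = 0.00816), and it was kept out of all counts of chains.

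Genes that fold, trim, cleave and bind these chains were taken as 5 lists. Of 64 tested members 12 fell (18.8%) and 9 rose (14.1%), against 16.3% and 9.56% of all genes. Without ad libitum replicate 2, 7 fell and 8 rose, against 11.3% and 7.95% of all genes. In the main fit all of these lists but that of procollagen cleavage and cross-linking held calls in both directions. Among 20 tested genes of collagen hydroxylation, glycosylation and folding, 5 fell and 3 rose. With the replicate block 7 fell and 4 rose, against 22.1% and 14.3% of all genes. Only 3 fell when fasted replicate 2, ad libitum replicate 2 or ad libitum replicate 3 was left out. Of all genes, 12.9%, 11.3% and 11.1% fell in these fits. Only 1 rose without fasted replicate 3 or ad libitum replicate 1, against 6.87% and 7.68% of all genes. Serpinh1, the collagen chaperone of the endoplasmic reticulum, had 3.48, 3.44, 2.31 and 3.05 FPKM in fasted and 6.55, 6.60, 5.54 and 6.18 FPKM in ad libitum libraries. The groups were far apart, with a log2 change of -0.84 (limma adjusted p = 0.000276). The lysyl hydroxylase Plod1 and the prolyl hydroxylase family member P3h3 also fell (log2 change -0.29 and -0.28), and P4ha2, a catalytic subunit of prolyl hydroxylase, rose (0.27, limma adjusted p = 0.0118, 0.0143 and 0.0180).

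Of 6 tested genes of procollagen cleavage and cross-linking, 0 fell and 2 rose, against 16.3% and 9.56% of all genes. With no filter 2 fell, against 10.1% of all genes. Without fasted replicate 1 or ad libitum replicate 1, 1 fell, against 14.8% and 12.8% of all genes. Pcolce2, which enhances removal of the C-terminal propeptide, had a log2 change of 0.48, and Bmp1, the protease that removes it, of 0.22 (limma adjusted p = 0.0124 and 0.0441). Pcolce2 passed the filter through the fasted libraries, at 1.46 to 2.322 FPKM, against 0.7074 to 1.219 FPKM in ad libitum ones. The call of Bmp1 ended with the replicate block (limma adjusted p = 0.0505) and when either fasted replicate 1, 2 or 4 or ad libitum replicate 1, 2 or 4 was left out.

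Of 12 tested matrix proteases and inhibitors, 2 fell and 2 rose, against 16.3% and 9.56% of all genes. With the replicate block 5 fell and 3 rose, against 22.1% and 14.3% of all genes, and without ad libitum replicate 4, 4 fell, against 20.5%. Mmp15, a membrane-type matrix metalloproteinase, had 2.06, 2.12, 1.83 and 1.62 FPKM in fasted and 3.27, 3.25, 3.26 and 2.77 FPKM in ad libitum libraries (log2 change -0.51, limma adjusted p = 0.000982). Mmp17, another membrane-type enzyme, also fell (-0.22, limma adjusted p = 0.0129). Ctsk, the lysosomal collagenase cathepsin K, and Timp3, a metalloproteinase inhibitor bound to matrix, rose (log2 change 0.48 and 0.25, limma adjusted p = 0.00458 and 0.0102).

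Of 12 tested basement membrane partners, 3 fell and 1 rose, against 16.3% and 9.56% of all genes. With the replicate block 2 rose, against 14.3% of all genes. Npnt, the integrin ligand nephronectin, had 10.6, 8.25, 9.26 and 9.16 FPKM in fasted and 15.6, 12.5, 12.4 and 12.8 FPKM in ad libitum libraries (log2 change -0.47, limma adjusted p = 0.00248). Vwa1, which binds perlecan, and Nid1, which links laminin to type IV collagen, fell by 0.23 and 0.22 on the log2 scale (limma adjusted p = 0.0326 and 0.0382), and each lost its call when single libraries were left out. Only 1 partner fell without fasted replicate 1, fasted replicate 3 or ad libitum replicate 2, against 14.8%, 13% and 11.3% of all genes. Tinagl1, a matricellular protein of basement membranes, rose (log2 change 0.45, limma adjusted p = 0.0128).

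Of 14 tested receptors, 2 fell and 1 rose, against 16.3% and 9.56% of all genes. Without ad libitum replicate 2, 1 fell, against 11.3% of all genes. Sdc4, a heparan sulfate proteoglycan of focal adhesions, had 20.3, 16.4, 18.4 and 15.1 FPKM in fasted and 11.4, 11.9, 10.6 and 11.0 FPKM in ad libitum libraries (log2 change 0.60, limma adjusted p = 0.000637). Its relative Sdc2 fell (-0.24, limma adjusted p = 0.0102). Ddr2, a receptor tyrosine kinase for fibrillar collagen, fell as well (-0.34, limma adjusted p = 0.0169), but not without ad libitum replicate 2 (limma adjusted p = 0.0515).

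**Figure D4:**
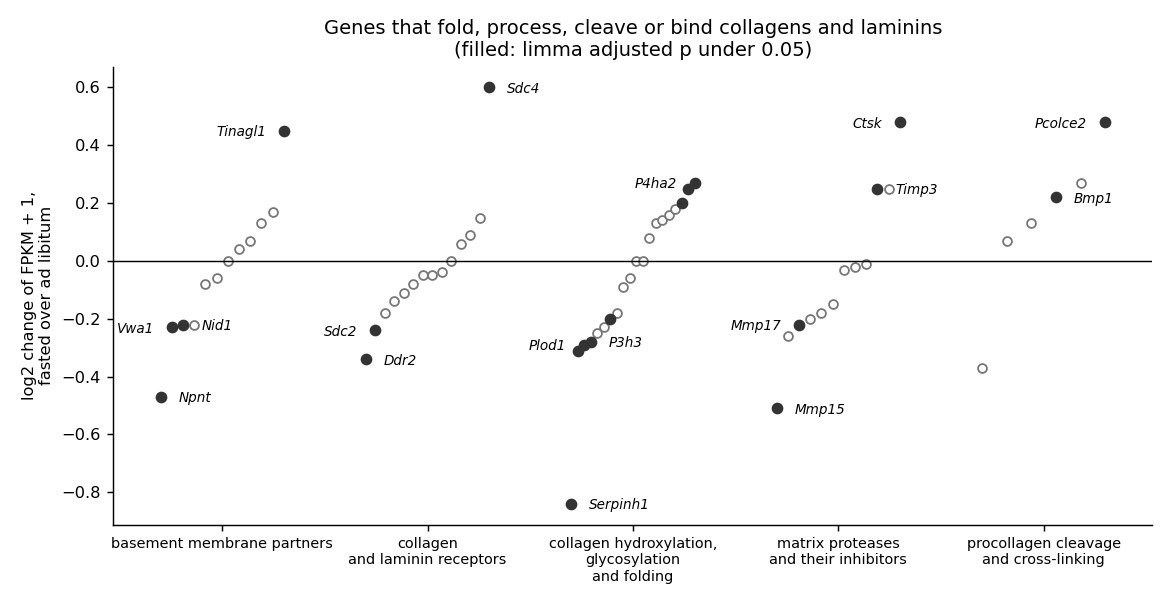
Log2 change of FPKM + 1, fasted over ad libitum, for each tested gene of the 5 lists of collagen and laminin partners, sorted within a list; filled points have a limma adjusted p under 0.05. Serpinh1 lies lowest at -0.84 and Sdc4 highest at 0.60.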

How the data were processed

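RNA-seq of occipital cortex was analysed in 8 libraries, 4 fasted and 4 ad libitum, grouped by the treatment label. The authors deposited FPKM values, 1 column per library in a table of 24883 rows. Per the submitters' processing notes, TopHat and the build mm10 were used; its version was not given in the sources used here. The same holds for the quantifier, the annotation and strandedness. The row with the highest mean was kept where a symbol was repeated. Coordinates, GC content and lengths came from GENCODE M21 (GRCm38, the assembly of mm10). Depth was estimated from FPKM times length in 4115 genes with a single transcript, as the densest low value between 0.01 and 0.2 FPKM kb, taken as 1 fragment; these estimates cover counting error only.

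Genes with at least 1 FPKM in at least 4 libraries (12377) were tested on log2(FPKM + 1) with limma 3.58.1 (R 4.3.3; trend and robust eBayes), with Benjamini-Hochberg adjustment over all of them and a threshold of 0.05; on this scale changes of low genes are understated. The fit was tested on simulated data. Tables and plots used Python 3.11.15, pandas 2.3.3 and matplotlib 3.10.9. Libraries with the same replicate number deviated together (correlation across genes 0.574, 0.496, 0.382 and 0.523 for numbers 1 to 4), a pairing read from the data, so fits with the number as a block are given beside a chain or named partner gene whose call they change and beside counts they move by over 1.5 times. Alternatives were a pseudocount of 0.1, no filter, median-ratio and quantile scaling, the block, GC and length offsets (splines with 5 degrees of freedom), the block with those offsets and leaving out each library.

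Values per library are given for called members and the 2 most abundant tested members of each class, with 1 laminin result not reported here, and for up to 4 called genes per partner list those with the smallest p are named. From marker lists the 2 most abundant and the called genes could be named. The members, classes and gene lists were chosen with earlier results of these data known.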

Additional observations from a re-analysis of the deposited data

Results flagged for a closer look

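Within groups of 4, single libraries stood apart from the other 3 in 7 of 124 groups examined over 62 sums and genes; chance sets apart about 1 in 20 groups. Col11a2 was highest in ad libitum replicate 3, at 3.14 FPKM against 2.667 to 2.706 FPKM in the others. Col24a1 was lowest in fasted replicate 1, at 1.099 FPKM against 1.599 to 1.632 FPKM. The same library was lowest for Col26a1, at 1.349 FPKM against 1.889 to 1.929 FPKM. Col5a2, which lay under the filter, was highest in fasted replicate 3, at 0.9047 FPKM against 0.7062 to 0.7381 FPKM. It was also lowest in ad libitum replicate 1, at 0.7665 FPKM against 0.9913 to 1.017 FPKM. Npnt was highest in ad libitum replicate 1, at 15.6 FPKM against 12.41 to 12.82 FPKM, and Mmp15 was lowest in ad libitum replicate 4, at 2.768 FPKM against 3.254 to 3.27 FPKM.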

How the results depend on the processing

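No called change reversed its direction in any setting; the uncalled estimates near 0 of Lama2, Col9a3, Col9a2 and Col6a2 changed sign with single libraries left out. Against 4 chains lower and 0 higher, no filter gave 8 and 1, the same numbers as no filter with a pseudocount of 0.1, a setting chosen after seeing the data. The replicate block gave 1 chain higher, and the block with GC and length offsets 7 lower and 1 higher. Fibrillar chains lower numbered 4 and higher 1 with no filter at either pseudocount. GC and length offsets gave 1 basement membrane chain lower, Col4a2, with and without the block. Leaving out single libraries gave 3 to 6 chains lower and 0 higher, 2 to 3 fibrillar chains lower, 0 basement membrane chains, and 7 to 13 partner genes lower against 12. Over all genes, 2015 lower and 1183 higher became 1936 and 1758 with median-ratio scaling, 1909 and 1792 with quantile scaling, 2024 and 1991 with the offsets, 2733 and 1773 with the block, and 2485 and 2514 with both. Single libraries left out gave 1362 to 2529 lower and 833 to 1193 higher. The causes were not tested. The block changed the calls of Col11a1 and Col6a1 and of no other tested chain. Chains under the filter rest on few fragments, which limits what can be seen in them.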
